A study of Homo sapiens with 8 samples.

Results

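The 49 genes described here encode the proteins that mark replication origins and build and run the replication fork: the origin recognition complex, the licensing factors, the MCM helicase with CDC45 and GINS, the replicative polymerases, the sliding clamp and its loader, the single-strand binding protein RPA, the Okazaki fragment enzymes and the fork protection proteins. The rule names them by symbol and known protein function, the list was drawn up with earlier results of these data known, and the genes are read complex by complex. All 49 were found, each under 1 identifier, among the 65962 identifiers of the expression table, and all 49 were among the 17460 genes that were tested. The samples were A673 cells, an established Ewing Sarcoma line in which the tumor suppressor p53 is mutated, treated for 36 hours with 2 μM JIB-04 or with its vehicle, DMSO. JIB-04 is a small molecule that inhibits Jumonji histone demethylases, and the active E isomer was used. There were 4 RNA-seq libraries with JIB-04 and 4 with vehicle, all from this single cell line at this single dose and time, and values are given below in the order of replicates 1 to 4.

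In dividing cells, the origin recognition complex, CDC6 and CDT1 load the MCM hexamer onto DNA in G1 phase. In S phase the kinase CDC7, with its activator DBF4, and other kinases turn this hexamer into the active helicase by adding CDC45 and the GINS complex. Polymerase alpha with primase then lays down primers, the clamp loader RFC places the ring-shaped clamp PCNA on them, and polymerases epsilon and delta copy the leading and the lagging strand. The transcripts of many of these genes are known targets of E2F transcription factors and are highest around the start of S phase.

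Expression was given as FPKM, fragments scaled by transcript length and by the number of mapped reads. FPKM summed to 1175407 to 1237186 in the JIB-04 libraries and to 1346289 to 1370436 in the vehicle libraries, and genes of the mitochondrial genome made up 4.59% to 5.54% of it with JIB-04 and 9.99% to 10.6% with vehicle. Read totals are not given, so the absolute depth is unknown. Steps between the lowest FPKM values placed the depth of the JIB-04 libraries at 0.766 to 0.926 of that of vehicle replicate 1, and that of the other vehicle libraries at 0.822 to 0.954 of it. All 7 Ewing Sarcoma line markers examined were expressed in both groups, with 5 lower, 1 higher and 1 not past the test, and their sum was 1359 ± 44.1 FPKM with JIB-04 and 2069 ± 28.6 FPKM with vehicle, 0.656 of the vehicle level. Of 14 markers of other cell types, 10 had a mean under 1 FPKM, and the 4 others were KRT8, SNAP25 and ITGAM, which were higher with JIB-04, and KRT18, which was lower. KRT8 averaged 71.5 ± 3.76 FPKM with JIB-04 and 23.2 ± 1.52 FPKM with vehicle, SNAP25 averaged 15.4 ± 1.56 FPKM with JIB-04 and 4.17 ± 0.210 FPKM with vehicle, ITGAM averaged 2.39 ± 0.763 FPKM with JIB-04 and 0.295 ± 0.111 FPKM with vehicle and KRT18 averaged 243 ± 6.66 FPKM with JIB-04 and 302 ± 8.95 FPKM with vehicle. Summed, the 14 came to 327 to 342 FPKM with JIB-04 and 322 to 343 FPKM with vehicle, most of it KRT18, and the muscle regulator MYOG was at 0 in every library. Their part in the results was not tested. Neither the labels nor the methods say that the replicates were separate cultures, so a p-value here measures the spread among the libraries alone, which may be technical. Within the groups, JIB-04 replicate 2 was the lowest JIB-04 library for 27 of the 49 genes and vehicle replicate 1 the lowest vehicle library for 31.

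Most transcripts of the replication machinery were lower with JIB-04. Of the 49 genes, 38 (77.6%) were lower with JIB-04 at a Benjamini-Hochberg adjusted limma p under 0.05, against 38.0% of all 17460 genes tested. Only 7 (14.3%) were higher, against 34.2% of all genes: ORC4, ORC6, CDC6, GINS3, RFC1, RFC3 and WDHD1. With the dependence of fold change on GC content (the GC trend) removed, 2 of these 7 stayed higher, ORC6 and GINS3. The 4 that did not pass the test were ORC5, GMNN, PRIM2 and DNA2. A fall of at least 2-fold was measured in 11 genes (MCM5, MCM6, PRIM1, POLD1, POLD2, POLE2, RFC4, RFC5, RPA3, LIG1 and TIMELESS), against 11.8% of all genes. A rise of at least 2-fold was measured in 0 of the 49 by limma, and in 0 by an analysis of variance of the FPKM, against 13.1% of all genes by limma. All 4 JIB-04 libraries lay below all 4 vehicle libraries for 36 of the 49 (35.4% of all genes) and above them for 6 (31.9% of all genes), and the groups overlapped for 7.

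The median log2 fold change of the 49 genes was -0.47, beside -0.07 for all genes tested. The changes ranged between -1.92 for PRIM1 and 0.70 for ORC6. Summed over the 49 genes, expression was 4677 ± 45.5 FPKM with JIB-04 and 6708 ± 143 FPKM with vehicle (mean ± SD, n = 4 each), 0.697 of the vehicle level. In single libraries the sum was 4708, 4624, 4655 and 4720.4 FPKM with JIB-04, against 6558, 6902, 6694 and 6676 FPKM with vehicle, so the groups stood far apart. In these bulk samples, a smaller share of cells in S phase and less RNA per cell cannot be told apart. Rescaling FPKM to TPM moved the median of all genes up by 0.15 on the log2 scale. With TPM 29 of the 49 were lower (31.1% of all genes), 7 were higher (40.4% of all genes) and 13 did not pass, and 6 were at least 2-fold lower. Small falls are therefore to be read against that shift. The distance between the median of the 49 and that of all genes was -0.39 with TPM and -0.41 with FPKM. TPM divides each library by 1 factor and so moves all genes by nearly the same amount, which means that this distance could hardly change.

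**Figure D1:**
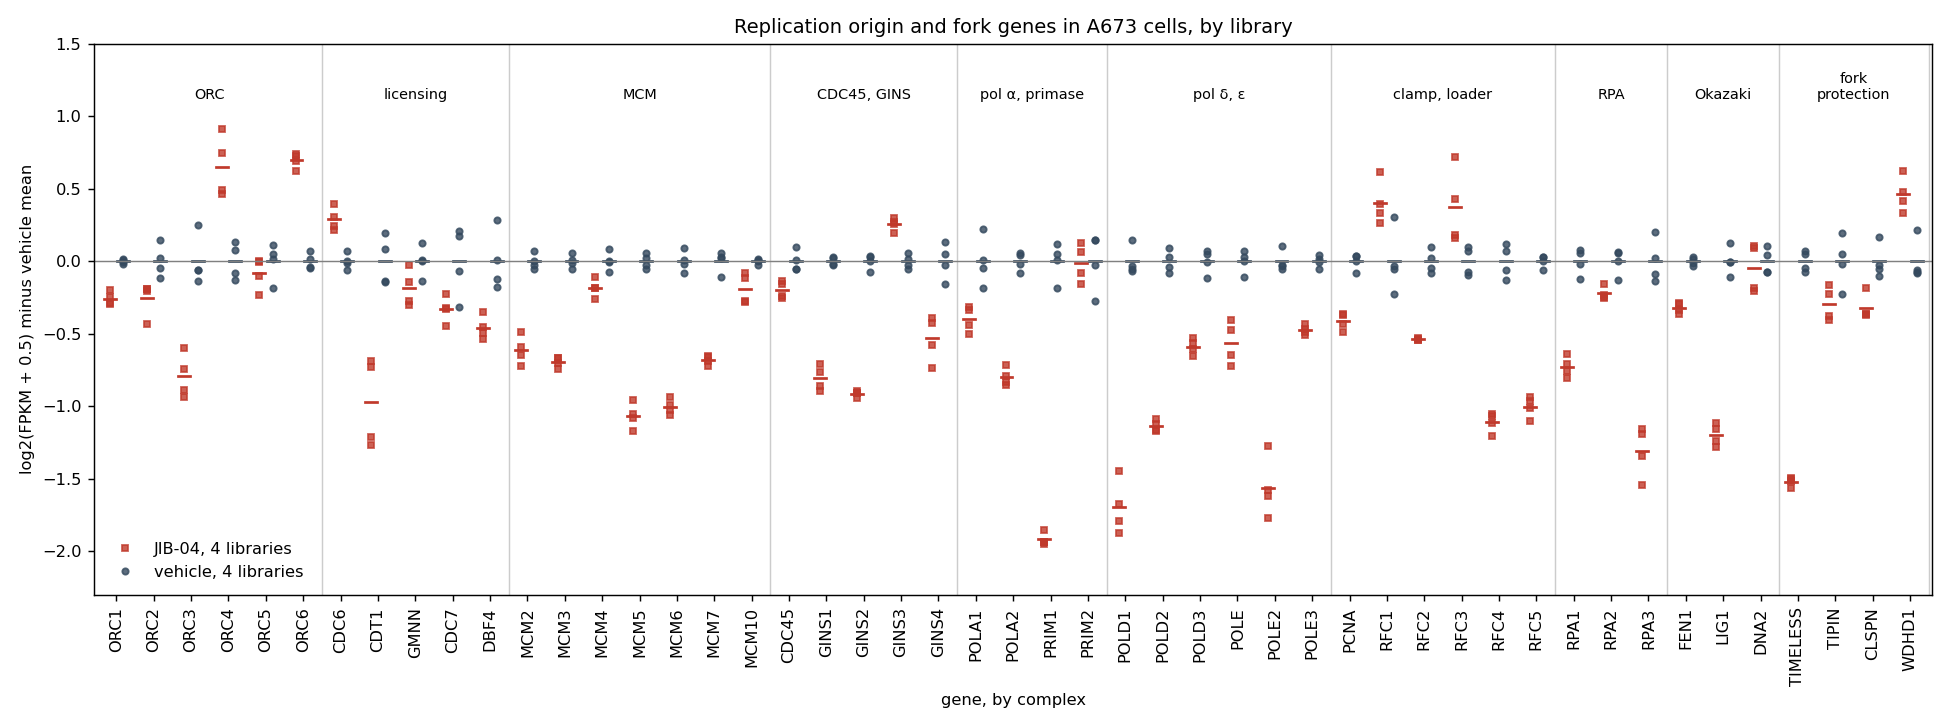
log2(FPKM + 0.5) of the 49 genes in each library minus the mean of the 4 vehicle libraries, by complex, with squares for the 4 JIB-04 libraries to the left of circles for the 4 vehicle libraries and bars at the group means. A reader should see that most genes, 38 of them called lower, lie below the line at 0, with PRIM1 lowest at -1.92, and ORC6 highest at 0.70.

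The origin recognition complex was the only one of the 10 groups whose summed expression was not lower with JIB-04: its 6 genes summed to 385 ± 24.9 FPKM with JIB-04 and 331 ± 7.06 FPKM with vehicle. That sum hides opposite changes, since ORC6 and ORC4 were higher, ORC1, ORC2 and ORC3 were lower, and ORC5 did not pass the test. ORC6, the smallest subunit, measured 133, 128, 137 and 138 FPKM in the JIB-04 libraries, against 83.2, 86.7, 79.9 and 80.2 FPKM in the vehicle libraries. Every JIB-04 library lay above every vehicle library, and ORC6 showed the largest rise of the 49 genes (log2 fold change 0.70, SE 0.04, adjusted p = 7.12e-07 by limma, where SE is the standard error). The gene lies on chromosome 16 at 46689643 to 46698394 of GRCh38, on the plus strand. ORC4, an ATP-binding subunit, measured 87.7, 85.9, 118 and 105 FPKM in the JIB-04 libraries, against 58.7, 56.9, 65.6 and 68.3 FPKM in the vehicle libraries. The groups did not overlap, with JIB-04 replicates 3 and 4 highest (log2 fold change 0.65, SE 0.11, adjusted p = 0.000427 by limma). ORC4 did not pass with the GC trend removed (log2 fold change 0.13, limma adjusted p = 0.291), as described further on.

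ORC3, which sits in the core of the complex, showed the largest fall in it, with 14.8, 14.3, 18.3 and 16.5 FPKM in the JIB-04 libraries, against 25.3, 26.7, 26.7 and 33.2 FPKM in the vehicle libraries (log2 fold change -0.79, SE 0.10, adjusted p = 1e-04 by limma). No JIB-04 library reached the lowest vehicle library. ORC1, an ATP-binding subunit, had 60.4 ± 1.87 FPKM with JIB-04 and 72.3 ± 0.790 FPKM with vehicle (log2 fold change -0.26, SE 0.04, adjusted p = 0.000312 by limma), and ORC2 had 43.2 ± 3.43 FPKM with JIB-04 and 51.6 ± 4.09 FPKM with vehicle (log2 fold change -0.25, SE 0.08, adjusted p = 0.0146 by limma). Both falls were small, and neither passed with TPM (limma adjusted p = 0.0597 for ORC1 and 0.327 for ORC2). ORC2 was also lost with median-ratio scaling (limma adjusted p = 0.0575) and with scaling over nuclear genes (limma adjusted p = 0.0719). ORC5 measured 34.0, 28.8, 31.5 and 33.9 FPKM in the JIB-04 libraries, against 29.9, 34.4, 36.7 and 35.2 FPKM in the vehicle libraries. The groups overlapped and the difference did not pass (log2 fold change -0.08, SE 0.08, adjusted p = 0.371 by limma).

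Among the licensing factors, the loader CDT1 was lower and its partner CDC6 was higher. CDT1, which brings the MCM hexamer to the origin, measured 55.4, 53.8, 38.3 and 36.8 FPKM in the JIB-04 libraries, against 103, 81.4, 80.7 and 94.7 FPKM in the vehicle libraries. JIB-04 replicates 3 and 4 were lowest, and all 4 JIB-04 libraries were below the vehicle range (log2 fold change -0.97, SE 0.15, adjusted p = 0.000263 by limma). CDC6, the ATPase that completes the origin complex before MCM loading, measured 123, 116, 111 and 109 FPKM in the JIB-04 libraries, against 98.2, 89.6, 92.9 and 93.6 FPKM in the vehicle libraries. The groups stood apart by a modest distance (log2 fold change 0.29, SE 0.05, adjusted p = 0.000618 by limma), and with the GC trend removed CDC6 no longer passed (log2 fold change 0.04, limma adjusted p = 0.456). GMNN encodes geminin, which binds CDT1 and blocks licensing outside G1, and it measured 81.0, 79.7, 96.8 and 88.9 FPKM in the JIB-04 libraries, against 89.4, 98.9, 98.2 and 107 FPKM in the vehicle libraries. The groups overlapped and the difference missed the threshold (log2 fold change -0.19, SE 0.08, adjusted p = 0.0529 by limma). GMNN passed as lower without JIB-04 replicate 3 (limma adjusted p = 0.0151) and without vehicle replicate 1 (limma adjusted p = 0.0245).

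The kinase that fires licensed origins was also lower in both of its subunits. DBF4, the activating subunit, had 36.9 ± 2.14 FPKM with JIB-04 and 51.2 ± 7.68 FPKM with vehicle (log2 fold change -0.46, SE 0.10, adjusted p = 0.00225 by limma), without overlap. CDC7, the catalytic subunit, measured 18.7, 17.3, 18.8 and 20.2 FPKM in the JIB-04 libraries, against 18.9, 22.6, 27.5 and 26.8 FPKM in the vehicle libraries. JIB-04 replicate 4 exceeded vehicle replicate 1, and the call was narrow (log2 fold change -0.33, SE 0.12, adjusted p = 0.0276 by limma). It was lost without any of JIB-04 replicates 1, 2 or 3 or vehicle replicates 3 or 4 (limma adjusted p = 0.0525 to 0.0785), with no filter (0.0546), with TPM (0.222), with median-ratio (0.0726) and nuclear-gene scaling (0.0844), and in an analysis of variance of the FPKM (0.0653).

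All 7 genes of the MCM group were lower with JIB-04, but by very different amounts. MCM5, a subunit at the gate through which the ring opens, measured 139.9, 162, 149 and 152 FPKM in the JIB-04 libraries, against 304, 328, 319.9 and 309 FPKM in the vehicle libraries. MCM6, a core subunit of the ring, measured 81.9, 78.3, 80.1 and 85.4 FPKM in the JIB-04 libraries, against 154, 174, 165 and 162 FPKM in the vehicle libraries. For both genes the groups stood far apart, with falls of about the same size (MCM5: log2 fold change -1.06, SE 0.05, adjusted p = 1.02e-07 by limma, and MCM6: log2 fold change -1.004, SE 0.05, adjusted p = 1.24e-07 by limma). MCM4, another core subunit and the most abundant of the 49 transcripts with vehicle, measured 614, 584, 554 and 583 FPKM in the JIB-04 libraries, against 629, 701, 659 and 662 FPKM in the vehicle libraries. The highest JIB-04 library was just under the lowest vehicle library, and the fall was small (log2 fold change -0.18, SE 0.04, adjusted p = 0.00449 by limma). It did not pass with TPM (limma adjusted p = 0.66) or with quantile normalization (limma adjusted p = 0.145).

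MCM2, MCM3 and MCM7 fell by intermediate amounts, with log2 fold changes of -0.61, -0.69 and -0.68. MCM7 averaged 346 ± 7.74 FPKM with JIB-04 and 555 ± 28.3 FPKM with vehicle, MCM3 averaged 203 ± 5.22 FPKM with JIB-04 and 329 ± 10.7 FPKM with vehicle, and MCM2 averaged 140.3 ± 9.76 FPKM with JIB-04 and 214 ± 7.87 FPKM with vehicle. None of the 3 overlapped between the groups. Of the exon bases of MCM2, 23.6% are shared with genes on the opposite strand, and the libraries were directional, but whether strand was used in counting is not stated. MCM10, which is not part of the ring but is needed to activate the helicase, was lower by little (log2 fold change -0.19, SE 0.06, adjusted p = 0.0127 by limma). Its fall did not pass with TPM (limma adjusted p = 0.659) or with scaling over nuclear genes (limma adjusted p = 0.0822). Together the 7 transcripts summed to 1577 ± 44.4 FPKM with JIB-04 and 2322 ± 64.8 FPKM with vehicle.

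Of CDC45 and the GINS complex, which join MCM to form the active helicase, 4 genes were lower and GINS3 was higher. GINS2 measured 40.3, 39.4, 40.2 and 40.8 FPKM in the JIB-04 libraries, against 72.4, 76.3, 77.7 and 78.1 FPKM in the vehicle libraries, and fell most of the 5 (log2 fold change -0.91, SE 0.04, adjusted p = 9.93e-08 by limma). The JIB-04 values lay within a very narrow range that no vehicle library approached. GINS1 averaged 26.9 ± 1.60 FPKM with JIB-04 and 47.4 ± 0.958 FPKM with vehicle (log2 fold change -0.81, SE 0.05, adjusted p = 9.74e-07 by limma). GINS4 averaged 30.5 ± 3.29 FPKM with JIB-04 and 44.2 ± 3.80 FPKM with vehicle (log2 fold change -0.53, SE 0.09, adjusted p = 0.000553 by limma), and 23.6% of its exon bases are shared with genes on the opposite strand. GINS3 went the other way, with 39.8, 37.6, 39.3 and 40.6 FPKM in the JIB-04 libraries, against 32.2, 34.2, 31.7 and 33.3 FPKM in the vehicle libraries. The difference was small but free of overlap (log2 fold change 0.26, SE 0.05, adjusted p = 0.00112 by limma), and it passed also with the GC trend removed. CDC45, which bridges MCM and GINS, averaged 53.5 ± 2.19 FPKM with JIB-04 and 61.5 ± 3.23 FPKM with vehicle (log2 fold change -0.20, SE 0.05, adjusted p = 0.00806 by limma). Its fall did not pass with TPM (limma adjusted p = 0.589), with median-ratio scaling (0.061) or with scaling over nuclear genes (0.0784).

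The primase subunits behaved very differently from each other. PRIM1, the catalytic subunit that makes the RNA primer, had the largest fall of the 49 genes, with 14.5, 14.3, 15.3 and 14.4 FPKM in the JIB-04 libraries, against 49.9, 57.0, 58.8 and 61.7 FPKM in the vehicle libraries. Every JIB-04 library was far below the lowest vehicle library (log2 fold change -1.92, SE 0.07, adjusted p = 2.57e-08 by limma). PRIM1 lies on chromosome 12 at 56731596 to 56752373 of GRCh38, on the minus strand, and 16.2% of its exon bases are shared with genes on the same strand. PRIM2, the regulatory subunit that pairs with PRIM1 in the enzyme, measured 25.7, 27.1, 31.4 and 30.0 FPKM in the JIB-04 libraries, against 23.7, 31.9, 31.9 and 28.2 FPKM in the vehicle libraries. Both groups covered the same range and the difference did not pass (log2 fold change -0.01, SE 0.11, adjusted p = 0.919 by limma). The standard error of PRIM2 spans small differences in either direction, so equal expression is not shown by this result.

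The DNA polymerase alpha subunits lay between the primase subunits. POLA2, the accessory subunit, measured 63.4, 60.6, 61.5 and 67.0 FPKM in the JIB-04 libraries, against 104, 114, 114 and 109 FPKM in the vehicle libraries (log2 fold change -0.80, SE 0.05, adjusted p = 5.71e-07 by limma). It was lower in every JIB-04 library, and 35.1% of its exon bases are shared with a gene on the same strand. POLA1, the catalytic subunit, averaged 44.2 ± 2.64 FPKM with JIB-04 and 58.7 ± 7.03 FPKM with vehicle (log2 fold change -0.40, SE 0.09, adjusted p = 0.00227 by limma), also without overlap. As a group the 4 transcripts summed to 151 ± 5.40 FPKM with JIB-04 and 255 ± 17.3 FPKM with vehicle.

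The 6 genes of polymerases delta and epsilon were all lower with JIB-04, and 3 fell at least 2-fold. Their summed expression was 496 ± 11.2 FPKM with JIB-04 and 926 ± 32.8 FPKM with vehicle, the lowest fraction of the vehicle level, 0.535, among the 10 groups. POLD1, the catalytic subunit of polymerase delta, measured 25.5, 30.0, 23.4 and 22.1 FPKM in the JIB-04 libraries, against 91.6, 80.8, 78.6 and 79.7 FPKM in the vehicle libraries. The JIB-04 libraries all lay far below the vehicle libraries (log2 fold change -1.70, SE 0.10, adjusted p = 3.04e-07 by limma). POLD2, the accessory subunit that links the catalytic subunit to the rest of the enzyme, measured 188, 194, 189 and 199 FPKM in the JIB-04 libraries, against 451, 433, 413 and 399.8 FPKM in the vehicle libraries (log2 fold change -1.14, SE 0.04, adjusted p = 3.76e-08 by limma). It was the most expressed of the 6 in both groups. POLE2, the second subunit of polymerase epsilon, measured 12.9, 11.2, 16.03 and 12.5 FPKM in the JIB-04 libraries, against 38.1, 38.7, 38.9 and 42.5 FPKM in the vehicle libraries. JIB-04 replicate 3 was highest of its group and still well under every vehicle library (log2 fold change -1.56, SE 0.10, adjusted p = 7.14e-07 by limma).

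The remaining subunits of these polymerases fell by less. POLD3, which contacts PCNA, averaged 38.8 ± 1.401 FPKM with JIB-04 and 58.7 ± 3.39 FPKM with vehicle (log2 fold change -0.59, SE 0.06, adjusted p = 9.44e-06 by limma). POLE, the catalytic subunit of polymerase epsilon, averaged 80.8 ± 8.34 FPKM with JIB-04 and 119 ± 6.25 FPKM with vehicle (log2 fold change -0.56, SE 0.08, adjusted p = 0.000114 by limma). POLE3, a histone-fold subunit, averaged 146 ± 3.40 FPKM with JIB-04 and 202 ± 5.46 FPKM with vehicle (log2 fold change -0.47, SE 0.04, adjusted p = 2.54e-06 by limma). The groups did not overlap for any of the 3.

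PCNA, the sliding clamp, was lower, while the 5 subunits of its loader split between both directions. PCNA measured 445, 429, 468 and 467 FPKM in the JIB-04 libraries, against 570.3, 617, 603 and 618 FPKM in the vehicle libraries. It was the most expressed gene in its group, and its fall was modest but free of overlap (log2 fold change -0.41, SE 0.04, adjusted p = 1.6e-05 by limma). RFC4 and RFC5, small subunits of the loader, fell most. RFC4 measured 78.1, 75.6, 79.0 and 70.9 FPKM in the JIB-04 libraries, against 150.5, 179, 158 and 173 FPKM in the vehicle libraries (log2 fold change -1.11, SE 0.06, adjusted p = 3.42e-07 by limma). RFC5 measured 37.9, 33.7, 37.2 and 35.9 FPKM in the JIB-04 libraries, against 70.2, 73.1, 74.6 and 74.5 FPKM in the vehicle libraries (log2 fold change -1.01, SE 0.05, adjusted p = 1.54e-07 by limma). For both, no JIB-04 library came near the lowest vehicle library. RFC2, the remaining small subunit that was lower, averaged 161 ± 1.03 FPKM with JIB-04 and 234 ± 13.2 FPKM with vehicle (log2 fold change -0.54, SE 0.04, adjusted p = 3.84e-06 by limma).

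RFC1 and RFC3 were higher with JIB-04. RFC1, the large subunit, measured 85.6, 73.6, 70.5 and 67.2 FPKM in the JIB-04 libraries, against 47.5, 54.6, 53.8 and 69.1 FPKM in the vehicle libraries. Vehicle replicate 4 exceeded JIB-04 replicate 4, so the groups overlapped (log2 fold change 0.40, SE 0.12, adjusted p = 0.011 by limma). RFC3, a small subunit like RFC4 and RFC5, measured 57.1, 56.2, 83.3 and 68.1 FPKM in the JIB-04 libraries, against 47.0, 47.8, 52.8 and 53.9 FPKM in the vehicle libraries. All JIB-04 libraries lay above all vehicle libraries, but they scattered widely, with replicate 3 highest (log2 fold change 0.37, SE 0.12, adjusted p = 0.0194 by limma). The call was lost without vehicle replicate 1 or without vehicle replicate 2 (limma adjusted p = 0.0523 in each case) and in an analysis of variance of the FPKM (adjusted p = 0.073). With the GC trend removed neither passed (limma adjusted p = 0.854 for RFC1 and 0.685 for RFC3). In GENCODE 29, 7 of the 49 genes have pseudogenes named after them, among them PCNA, RFC3 and RFC5, and how reads shared with such copies were counted is not stated.

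**Figure D2:**
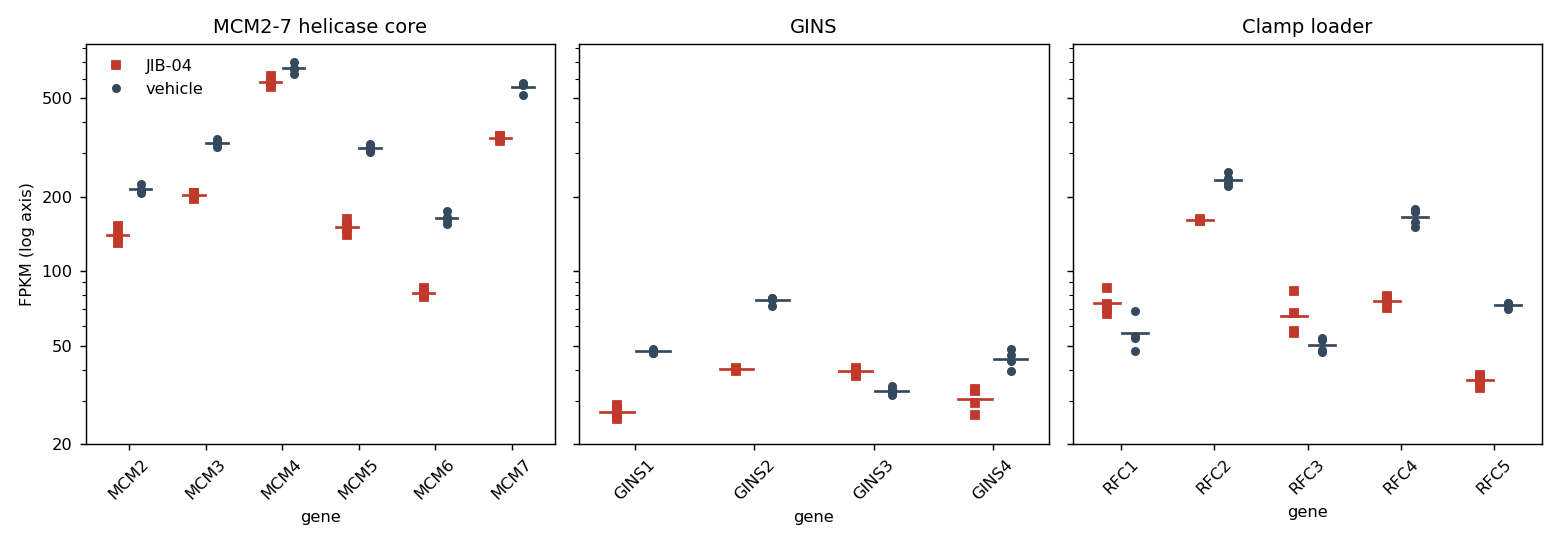
FPKM (log axis) of the MCM ring, GINS and clamp loader subunits, with 1 point for each library, JIB-04 to the left of vehicle, and bars at the group means (n = 4 each). A reader should see all 6 MCM genes lower with JIB-04, MCM4 least and MCM5 and MCM6 most, while GINS3, RFC1 and RFC3 alone lie higher in their complexes.

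All 3 subunits of RPA, which coats single-stranded DNA, were lower. RPA3, the smallest, measured 37.4, 28.6, 32.9 and 36.5 FPKM in the JIB-04 libraries, against 76.3, 97.1, 79.2 and 85.3 FPKM in the vehicle libraries. The groups were far apart (log2 fold change -1.31, SE 0.10, adjusted p = 2.54e-06 by limma). RPA1, the largest subunit and the one with most DNA contacts, measured 107, 104, 111 and 117 FPKM in the JIB-04 libraries, against 167, 189.7, 192 and 179.8 FPKM in the vehicle libraries (log2 fold change -0.73, SE 0.06, adjusted p = 2.53e-06 by limma). The groups did not overlap. RPA1 was the most expressed of the 3 with vehicle, and RPA2 with JIB-04. RPA2 averaged 129 ± 4.05 FPKM with JIB-04 and 151 ± 9.17 FPKM with vehicle and fell least (log2 fold change -0.22, SE 0.05, adjusted p = 0.00368 by limma), and did not pass with TPM (limma adjusted p = 0.346).

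Of the Okazaki fragment enzymes, LIG1 and FEN1 were lower and DNA2 did not pass. LIG1, the ligase that joins the fragments, measured 84.6, 87.0, 79.8 and 77.7 FPKM in the JIB-04 libraries, against 189, 206, 189 and 176 FPKM in the vehicle libraries (log2 fold change -1.20, SE 0.06, adjusted p = 1.32e-07 by limma). FEN1, the flap endonuclease and the most expressed of the 3, measured 176, 186, 179.9 and 185 FPKM in the JIB-04 libraries, against 229, 232, 222 and 225 FPKM in the vehicle libraries (log2 fold change -0.32, SE 0.03, adjusted p = 2.4e-05 by limma). Neither overlapped between the groups, and the fall of LIG1 was the larger. DNA2, a nuclease-helicase that trims long flaps, measured 27.3, 26.9, 33.5 and 33.2 FPKM in the JIB-04 libraries, against 29.5, 33.5, 29.6 and 32.1 FPKM in the vehicle libraries. JIB-04 replicates 3 and 4 were about as high as the highest vehicle library, while replicates 1 and 2 were below the lowest, so the groups overlapped (log2 fold change -0.05, SE 0.09, adjusted p = 0.649 by limma).

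Among the fork protection proteins, TIMELESS fell strongly and its partner TIPIN changed little. TIMELESS, which holds the helicase and polymerases together, measured 29.2, 27.9, 29.2 and 28.9 FPKM in the JIB-04 libraries, against 81.0, 87.6, 86.4 and 79.2 FPKM in the vehicle libraries. The spread within each group was small against the distance between them (log2 fold change -1.52, SE 0.05, adjusted p = 1.27e-08 by limma). TIPIN, which binds TIMELESS, measured 45.2, 39.7, 40.6 and 47.1 FPKM in the JIB-04 libraries, against 45.2, 52.1, 54.6 and 60.6 FPKM in the vehicle libraries (log2 fold change -0.29, SE 0.09, adjusted p = 0.0188 by limma). The groups overlapped, its call was lost without JIB-04 replicate 2 (limma adjusted p = 0.0536), with TPM (0.24) and with median-ratio (0.057) and nuclear-gene scaling (0.0694), and 21.0% of its exon bases are shared with a gene on the same strand. CLSPN, the checkpoint adaptor claspin, averaged 38.5 ± 2.53 FPKM with JIB-04 and 48.3 ± 4.13 FPKM with vehicle (log2 fold change -0.32, SE 0.07, adjusted p = 0.00292 by limma), and did not pass with TPM (limma adjusted p = 0.0681). WDHD1, which ties polymerase alpha to the helicase, measured 32.6, 29.5, 36.1 and 31.1 FPKM in the JIB-04 libraries, against 22.0, 22.3, 22.0 and 27.0 FPKM in the vehicle libraries. It was higher in every JIB-04 library (log2 fold change 0.46, SE 0.09, adjusted p = 0.00109 by limma), although with the GC trend removed it did not pass (limma adjusted p = 0.891).

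Because subunits of 1 complex are measured in the same library, their ratio hardly depends on how libraries are scaled. Ratios were taken on FPKM + 0.5. The mean log2 ratio of ORC6 to ORC2, ORC3, ORC4 and ORC5 was 1.79 with JIB-04 and 0.97 with vehicle, a difference of 0.81. The ratio of GINS3 to GINS1, GINS2 and GINS4 was 0.29 with JIB-04 and -0.71 with vehicle, so GINS3 stood above the others in treated cells and below them in vehicle cells. The ratio of PRIM1 to PRIM2 was -0.94 with JIB-04 and 0.97 with vehicle, a difference of -1.91. On a linear scale, PRIM1 thus stood at 0.522 of PRIM2 with JIB-04 and at 1.96 times PRIM2 with vehicle. The ratio of RFC3 to RFC2, RFC4 and RFC5 was -0.22 with JIB-04 and -1.48 with vehicle, and that of TIMELESS to TIPIN was -0.57 with JIB-04 and 0.65 with vehicle.

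The other ratios of the 10 compared first moved by less. The ratio of CDT1 to GMNN was -0.92 with JIB-04 and -0.14 with vehicle, that of CDC6 to ORC1 was 0.92 with JIB-04 and 0.37 with vehicle, and that of MCM10 to the MCM ring was -1.49 with JIB-04 and -2.01 with vehicle. POLA1 over POLA2 was -0.51 with JIB-04 and -0.91 with vehicle. For DBF4 over CDC7, at 0.96 with JIB-04 and 1.08 with vehicle, the libraries of both groups overlapped. For the other 9 of these 10 ratios they did not. How often ratios of other gene pairs separate was not computed. Among single genes, 35.4% of all tested lay below vehicle without overlap and 31.9% above, so separation was common in these data. These 10 pair members of a list drawn up with earlier results of these data known, so their choice may not be independent of the values. A further 7 ratios were picked after the values had been seen. Among them, MCM4 stood at 7.13 times MCM6 with JIB-04 and at 4.04 times MCM6 with vehicle, and WDHD1 stood at 1.12 times TIMELESS with JIB-04 and at 0.283 of it with vehicle. RPA3 over RPA2 was -1.92 with JIB-04 and -0.83 with vehicle, POLE2 over POLE was -2.58 with JIB-04 and -1.58 with vehicle, and POLD1 over POLD2 was -2.91 with JIB-04 and -2.35 with vehicle. These ratios are given as descriptions, with no test, and were not computed with the GC trend removed.

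**Figure D3:**
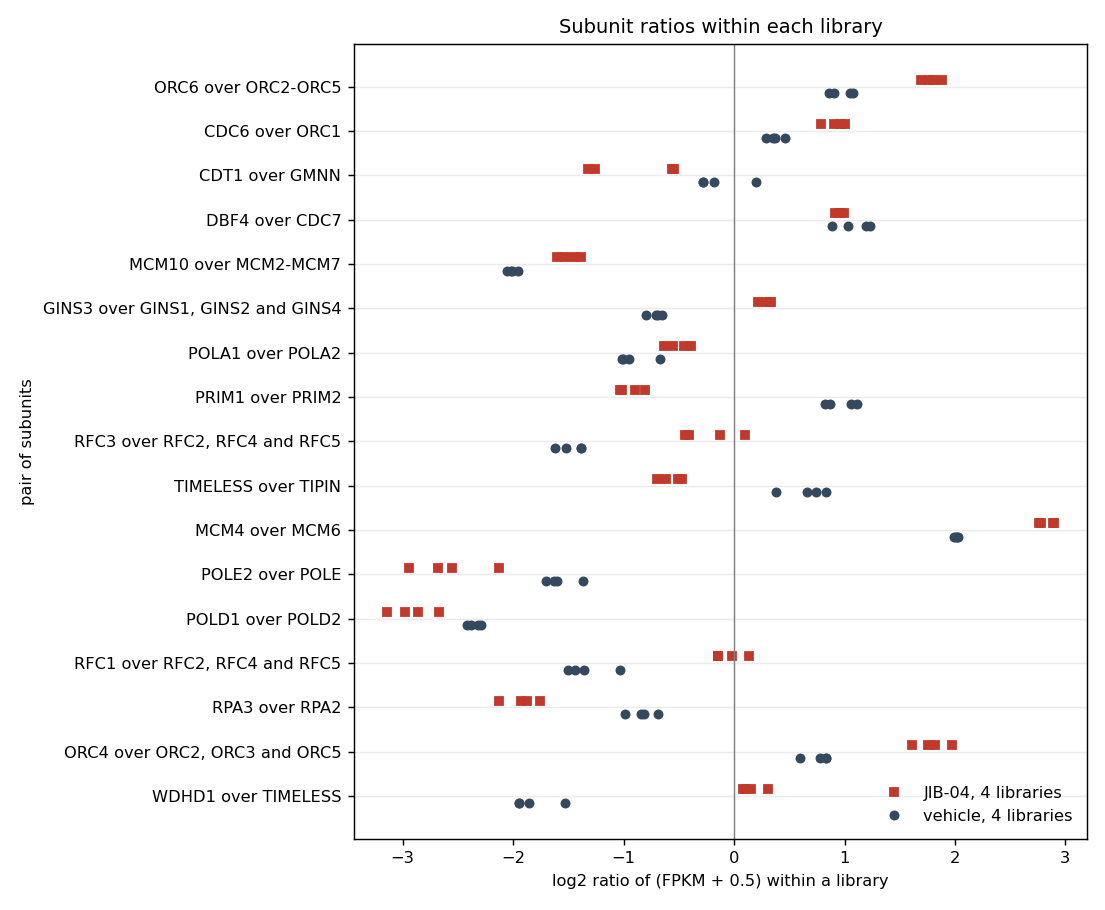
Within-library log2 ratios of subunits, JIB-04 and vehicle, with 1 point for each of the 4 libraries a group. The axis is log2 of the ratio of FPKM + 0.5, and a reader should see PRIM1 over PRIM2 at -0.94 with JIB-04 and 0.97 with vehicle, with no overlap, whereas DBF4 over CDC7 overlaps.

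The calls were compared under different scalings and with the dependence on GC content taken out. With FPKM, TPM, median-ratio scaling and scaling over nuclear genes the same 7 genes were higher. Relative to FPKM, TPM, median-ratio and nuclear-gene scaling moved the median of all genes up, by 0.15, 0.05 and 0.08 on the log2 scale. They could therefore hardly remove a rise, and the unchanged 7 are no test of the rises. The number of lower genes was 29 with TPM, 34 with median-ratio scaling, 33 with scaling over nuclear genes and 38 with FPKM. With TPM, CDC45, CDC7, CLSPN, MCM10, MCM4, ORC1, ORC2, RPA2 and TIPIN joined the 4 that did not pass, and a fall of at least 2-fold was left in 6 genes, as against 8 with scaling over nuclear genes. Across the 12251 protein-coding genes tested, the fold change fell with the GC content of the transcripts (Spearman rho -0.32), as it did across the 49 (rho -0.39). These correlations are across genes, which share the same libraries and are not independent replicates. The median GC content was 43.3% for the 7 higher genes and 48.5% for the 38 lower ones. With the GC trend removed, ORC6 and GINS3 remained higher, ORC4, CDC6, RFC1, RFC3 and WDHD1 did not pass, and 42 of the 49 were lower, among them ORC5, GMNN, PRIM2 and DNA2. In that fit 45.8% of all 12251 genes were lower and 33.6% higher, and the median was -0.62 for the 49 and -0.14 for all. The cause of the trend was not tested.

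**Figure D4:**
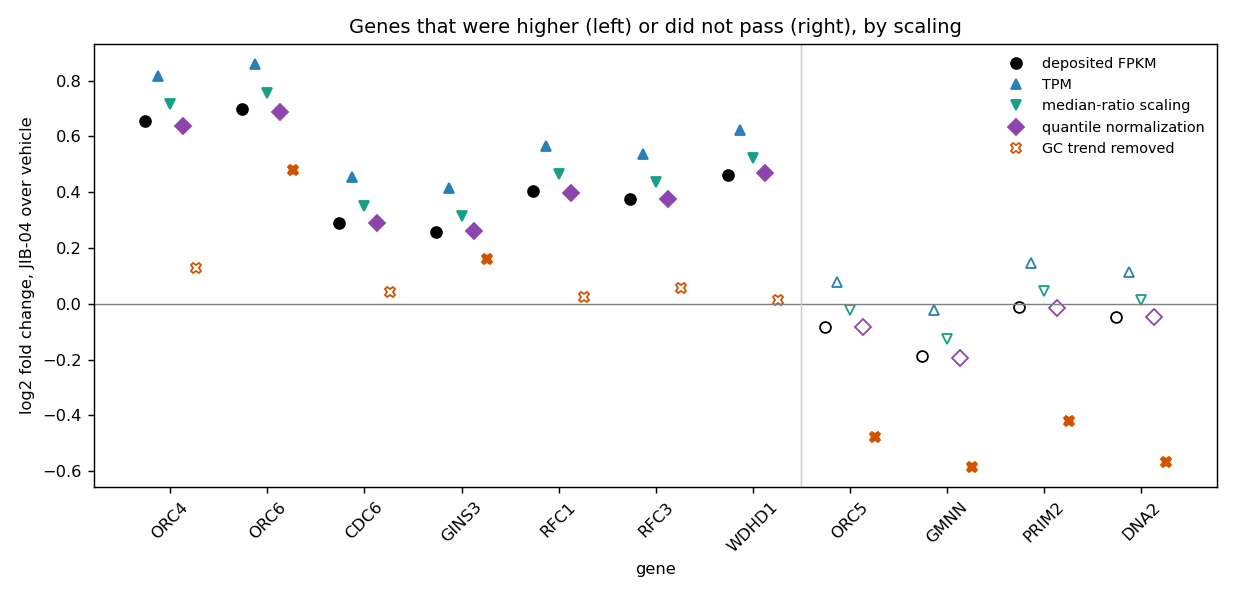
Log2 fold change (JIB-04 over vehicle) of the 7 higher genes, left of the line, and the 4 that did not pass, right of it, under 5 settings, with filled marks for an adjusted p under 0.05. A reader should see that the 7 stay filled and above 0 under FPKM, TPM, median-ratio scaling and quantile normalization. TPM and median-ratio scaling move all genes up, so they could hardly remove a rise. With the GC trend removed only ORC6 and GINS3 stay filled above 0, while ORC5, GMNN, PRIM2 and DNA2 turn filled below it.

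**Figure D5:**
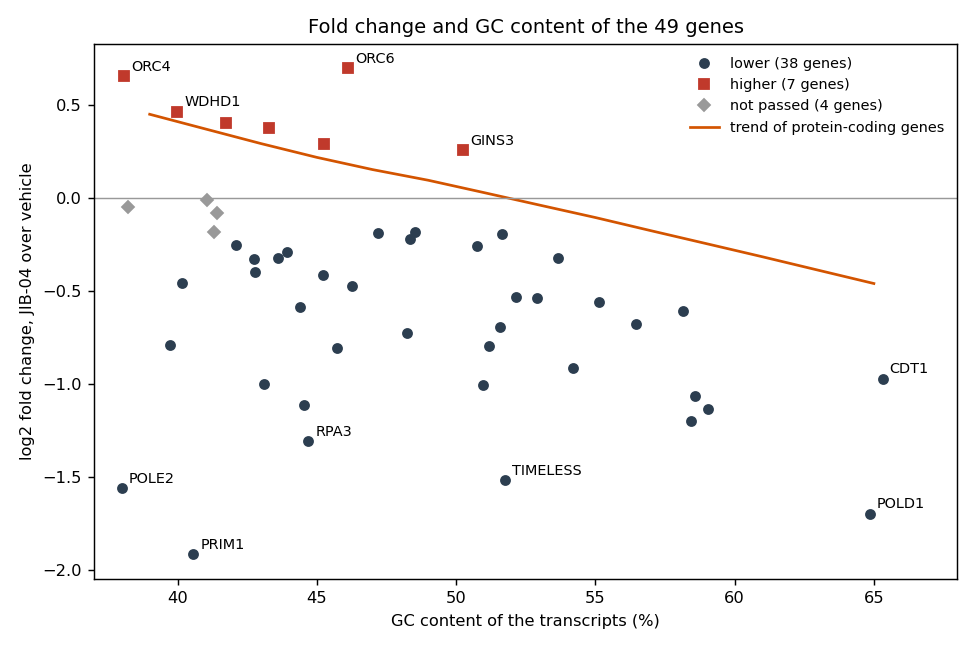
Log2 fold change against the GC content of the transcripts (%) for the 49 genes, with squares for higher, circles for lower and diamonds for genes that did not pass, and a line for the trend of all protein-coding genes tested. A reader should see that ORC6 and GINS3 lie above the line. ORC4, CDC6, RFC1, RFC3 and WDHD1 also lie above the trend, by 0.05 to 0.17 on the log2 scale. PRIM1 and POLE2 lie far below it at low GC, and POLD1 and CDT1 have the highest GC content.

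The promoters of 42 of the 49 genes matched a 300-base RefSeq window of GRCh38.p14, which runs from 250 bases before to 50 bases after the start of the gene. Both strands were searched for 2 E2F motifs, GGCGGGAA and TTTNNCGC. At least 1 of them was found in 25 of the 42 (59.5%), against 9.06% of all 35116 windows. TTTNNCGC was found in 21 of the 42, against 6.89% of all windows, and GGCGGGAA in 10 (23.8%, against 3.16%). The motif CCAAT was found in 23 (54.8%, against 34.61%), and TTTGAA, the CHR motif of cell cycle genes, in 1 (2.4%, against 15.16%). By call, at least 1 E2F motif was found in 20 of the 32 lower genes with a window, in 5 of the 7 higher genes and in 0 of the 3 that did not pass. Among the higher genes these were ORC6, CDC6, GINS3, RFC1 and RFC3, of which only ORC6 and GINS3 stayed higher with the GC trend removed. The counts by call are also given for each motif alone. TTTNNCGC was found in 16 of the 32 lower genes and 5 of the 7 higher genes, so it stood beside falls and rises alike. GGCGGGAA was found in 10 of the 32 lower genes, in 0 of the 7 higher genes and in 0 of the 3 that did not pass. With only 7 and 3 genes in these groups, these counts cannot show a difference between calls, and none was tested. A match is a description of letters in the window, not a measured binding site. The windows of all genes were not matched to those of the 42 for base composition or gene type, which also affect how often a motif is found.

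The windows of PRIM1 and POLE2, which were among the largest falls, and of ORC6 and CDC6, which were higher, are printed 5′ to 3′ on the strand of the gene. PRIM1 holds GGCGGGAA, while POLE2, ORC6 and CDC6 hold TTTNNCGC. They were chosen after the values were seen. Letters are in lower case and E2F motifs, read on either strand, are in capitals. The windows are chr12:56752274-56752573 on the minus strand for PRIM1, chr14:49688165-49688464 on the minus strand for POLE2, chr16:46689409-46689708 on the plus strand for ORC6 and chr17:40287629-40287928 on the plus strand for CDC6.
PRIM1: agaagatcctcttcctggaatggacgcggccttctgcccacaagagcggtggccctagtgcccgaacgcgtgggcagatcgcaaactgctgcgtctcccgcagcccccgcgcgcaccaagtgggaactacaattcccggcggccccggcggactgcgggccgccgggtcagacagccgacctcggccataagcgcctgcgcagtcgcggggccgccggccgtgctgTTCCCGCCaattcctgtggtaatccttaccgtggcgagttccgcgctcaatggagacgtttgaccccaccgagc
POLE2: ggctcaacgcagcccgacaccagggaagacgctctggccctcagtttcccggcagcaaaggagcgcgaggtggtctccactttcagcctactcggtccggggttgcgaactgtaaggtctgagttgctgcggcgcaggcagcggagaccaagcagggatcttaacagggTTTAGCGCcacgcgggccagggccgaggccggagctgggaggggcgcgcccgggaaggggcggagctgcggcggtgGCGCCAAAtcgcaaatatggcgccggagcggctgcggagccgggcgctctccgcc
ORC6: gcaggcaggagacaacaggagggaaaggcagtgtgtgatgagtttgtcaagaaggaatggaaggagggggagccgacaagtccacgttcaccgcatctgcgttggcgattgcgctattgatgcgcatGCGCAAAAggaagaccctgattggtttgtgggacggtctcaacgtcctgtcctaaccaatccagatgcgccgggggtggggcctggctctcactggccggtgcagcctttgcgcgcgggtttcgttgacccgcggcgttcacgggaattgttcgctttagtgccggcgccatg
CDC6: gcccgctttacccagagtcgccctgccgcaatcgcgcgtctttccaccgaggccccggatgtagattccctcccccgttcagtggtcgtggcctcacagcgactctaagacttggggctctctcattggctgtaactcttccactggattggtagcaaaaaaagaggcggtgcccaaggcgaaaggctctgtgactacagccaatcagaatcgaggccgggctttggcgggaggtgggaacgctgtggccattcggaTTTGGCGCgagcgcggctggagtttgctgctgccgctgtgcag
These 4 were picked because they hold a match. The windows of POLD1 and TIMELESS, which also fell strongly, hold 0 matches to either motif. The same holds for ORC4, which was higher by less than 2-fold and did not pass with the GC trend removed.

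Other genes of DNA replication were listed by function, and their counts are to be read beside the 38.0% of all genes that were lower and the 34.2% that were higher. Of 19 further firing, elongation and termination factors, 10 were lower, 8 were higher and POLD4 did not pass. RNASEH2A, the catalytic subunit of the nuclease that removes RNA from DNA, averaged 45.02 ± 2.68 FPKM with JIB-04 and 147 ± 6.34 FPKM with vehicle (log2 fold change -1.70, SE 0.06, adjusted p = 1.29e-08 by limma). TOP2A, a topoisomerase that untangles DNA, averaged 40.1 ± 2.03 FPKM with JIB-04 and 90.9 ± 11.7 FPKM with vehicle, and MCMBP, which binds MCM proteins, averaged 89.9 ± 3.93 FPKM with JIB-04 and 143 ± 3.997 FPKM with vehicle. Both were lower, with log2 fold changes of -1.16 and -0.67 (limma adjusted p = 1.98e-06 and 9.06e-07). The higher genes included the ones for the origin firing factors TICRR, MTBP and TOPBP1, whereas RECQL4, of the same list, was lower (log2 fold change -1.36, SE 0.11, adjusted p = 3.12e-06 by limma). MTBP and TOPBP1, with log2 fold changes of 0.56 and 0.55, have transcripts of 39.2% and 40.8% GC. The GC trend of protein-coding genes stood at 0.45 at 39% GC and at 0.37 at 41% GC.

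Of 10 genes for clamp unloading, alternative loaders and CDT1 turnover, 5 were lower, 3 were higher and 2 did not pass, shares near those of all genes. DTL, the substrate receptor of the ubiquitin ligase that degrades CDT1 on PCNA-bound DNA, averaged 418 ± 16.2 FPKM with JIB-04 and 171 ± 13.7 FPKM with vehicle (log2 fold change 1.29, SE 0.06, adjusted p = 9.06e-08 by limma). CUL4B, a scaffold of that ligase family, averaged 57.5 ± 3.86 FPKM with JIB-04 and 27.1 ± 2.00 FPKM with vehicle (log2 fold change 1.07, SE 0.07, adjusted p = 7.69e-07 by limma). SKP2, a receptor of another ligase of CDT1, averaged 52.3 ± 3.02 FPKM with JIB-04 and 103 ± 11.1 FPKM with vehicle (log2 fold change -0.96, SE 0.08, adjusted p = 5.01e-06 by limma). Other subunits of the DTL ligase went the other way, with CUL4A lower (log2 fold change -0.40, SE 0.06, adjusted p = 0.000358 by limma) and DDB1 lower (log2 fold change -0.19, SE 0.04, adjusted p = 0.000998 by limma). Of the 10 genes for nucleosome assembly at forks, 9 were lower and MMS22L did not pass. SSRP1, a subunit of the histone chaperone FACT, averaged 240.3 ± 6.70 FPKM with JIB-04 and 484 ± 8.51 FPKM with vehicle (log2 fold change -1.01, SE 0.03, adjusted p = 1.48e-08 by limma). CHAF1B and RBBP4, subunits of the chromatin assembly factor, had log2 fold changes of -0.998 and -0.64.

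Of 8 translesion and repriming genes, 3 were lower, 4 were higher and REV3L did not pass, again near the shares of all genes. RAD18, the ubiquitin ligase that modifies PCNA at stalled forks, averaged 43.3 ± 2.47 FPKM with JIB-04 and 17.6 ± 2.93 FPKM with vehicle (log2 fold change 1.29, SE 0.10, adjusted p = 3.43e-06 by limma). REV1, a translesion polymerase, averaged 11.8 ± 2.33 FPKM with JIB-04 and 25.4 ± 1.34 FPKM with vehicle (log2 fold change -1.10, SE 0.14, adjusted p = 6.24e-05 by limma). MAD2L2, a subunit of polymerase zeta, was lower (log2 fold change -0.43, SE 0.06, adjusted p = 9.15e-05 by limma), and did not pass with the GC trend removed (limma adjusted p = 0.0542).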

How the data were processed

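RNA-seq of polyadenylated RNA from A673 cells was analyzed for 4 libraries with 2 μM JIB-04 and 4 with DMSO, each after 36 hours. As the methods and the submitters' processing notes state, the authors aligned reads to GRCh38 with GSNAP, processed alignments with SAMtools and computed FPKM with Cufflinks. The annotation release and any use of strand in counting are not given in the sources used here. The deposited FPKM were used with no further scaling. The table had 66095 entries for 65975 identifiers. Entries of the 117 identifiers listed more than once were summed, and 13 genes with a placeholder value were left out, which left 65962. No column held the authors' own comparisons.

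A gene was tested where its FPKM averaged 1 or more across the 8 libraries, by limma 3.58.1 (R 4.3.3, lmFit and eBayes with trend) on log2(FPKM + 0.5), with Benjamini-Hochberg adjustment over all 17460 genes and a threshold of 0.05. Fold changes on this scale understate those of low genes. The fit was tested on simulated data. GC content and exon overlap came from GENCODE 29, and promoter windows from RefSeq (GRCh38.p14). The alternatives were pseudocounts of 0.1 and 1, no filter, a mean of at least 5 FPKM, TPM, median-ratio, quantile and nuclear-gene scaling, analysis of variance, a replicate block, each library left out, and the GC trend removed. The version that also removed the centre was chosen after seeing the data. Members of the gene lists, and the lists, were chosen with earlier results of these data known. Values in every library are given for genes changed at least 2-fold, against most of their complex or not past the test, and for the highest level and largest change in each complex. The other lists are given by counts and the 3 smallest adjusted p, with some further genes named.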

Additional observations from a re-analysis of the deposited data

Results flagged for a closer look

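In 4 of the 98 groups of 4 libraries examined over the 49 genes, 1 library lay far from the other 3 relative to the spread of its group. About 1 in 20 such groups is picked out by chance. ORC2 was at 38.1 FPKM in JIB-04 replicate 2, below the others. PRIM1 was at 15.3 FPKM in JIB-04 replicate 3, above the others, and still far below every vehicle library. CLSPN was at 42.3 FPKM in JIB-04 replicate 1 and WDHD1 at 27.0 FPKM in vehicle replicate 4, each above the rest of its group. None of the 4 genes lost its call when the library concerned was left out.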

How the results depend on the processing

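The counts of lower and higher genes stayed within 1.5 times those reported under pseudocounts of 0.1 and 1, no filter, a mean of at least 5 FPKM, TPM, median-ratio, quantile and nuclear-gene scaling, analysis of variance and the replicate block, with 29 to 39 lower and 6 to 7 higher. TPM, median-ratio and nuclear-gene scaling move all genes up, so they could hardly reduce the count of higher genes. The count of genes at least 2-fold lower was 6 with TPM and 11 with FPKM. The higher genes numbered 2 with the GC trend removed and 2 with trend and centre removed. The median log2 fold change of the 49 was -0.31 with TPM, -0.39 with nuclear-gene scaling, -0.62 with the GC trend removed and -0.58 with trend and centre removed. The cause of the GC trend was not tested. With 1 library left out in turn, 36 to 39 genes were lower and 6 to 7 higher. RFC3 was the higher gene that was lost, without vehicle replicate 1 or 2.

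ORC5, PRIM2 and DNA2 changed sign on the log2 scale without passing the test. ORC5 was at 0.0779 with TPM. PRIM2 was at 0.148 with TPM, 0.0469 with median-ratio scaling and 0.0681 with nuclear-gene scaling, and between -0.1034 and 0.0367 with 1 library left out. DNA2 was at 0.114 with TPM, 0.0125 with median-ratio scaling and 0.0338 with nuclear-gene scaling, and between -0.0990 and 0.0048 with 1 library left out. The subunit ratios kept their direction with pseudocounts of 0.1 and 1 and with 1 library left out. They were not computed with the GC trend removed. In that fit the log2 fold changes of CDT1 and GMNN were close, at -0.54 and -0.58, so the difference in their ratio depends on the trend. Replicate numbers are shared between the groups, but libraries of 1 number did not visibly deviate together (correlations of deviations 0.0823, -0.058, 0.0256 and -0.0024). Such correlations cannot show whether libraries of 1 number were handled together. With the replicate block 39 genes were lower and 7 higher, and GMNN passed (limma adjusted p = 0.0343).

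Absolute read depth is unknown, so no counting error can be given for low genes. The summed FPKM and the mitochondrial share differed between the groups, and which scaling is right was not tested. Summing identifiers of 1 symbol could not change a value, since each symbol had 1 identifier.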
